A study of Danio rerio with 6 samples.

Results

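The genes described here serve the yellow and the silvery pigment cells of the zebrafish, the xanthophores and the iridophores. There are 10 of them: *gch2*, *pts* and *xdh* of pteridine pigment synthesis, *gart* of purine synthesis, the purine nucleoside phosphorylases *pnp4a* and *pnp5a*, the transcription factors *pax7a* and *pax7b*, and the receptors *ltk* and *ednrba*. They were chosen by name for these roles, by a rule that uses no measured value, although earlier results of these data were known. All 10 were found among the 23025 genes of the table, 8 under the same name, *pts* in other letter case and *ednrba* under the older name *ednrb1a*. Expression was measured by RNA-seq in zebrafish hindbrain at 48 hours post fertilization (hpf), in 3 libraries from wildtype controls and 3 from *gas6*-/- mutants. Both genotypes carried the olig2:EGFP transgene, in which *olig2* regulatory sequence drives green fluorescent protein and which guided the dissection, and the controls were Tg(olig2:EGFP)vu12 embryos. The mutants came from a line kept as homozygotes for a CRISPR/Cas9 frameshift allele, and which of the study's alleles the libraries carried is not given in the sources used here. Each library was made from a pool of dissected, deyolked tissue, and since controls and mutants came from separate lines, line and genotype cannot be told apart.

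Both cell types arise from the neural crest, which leaves the dorsal neural tube and also gives rise to the black melanophores. Xanthophores make yellow pteridines from GTP and also store carotenoids, whereas iridophores reflect light from stacked platelets of guanine, a purine. The pathways meet, because the GTP that enters pteridine synthesis is itself made by purine synthesis. Several of the 10 genes are also used outside pigment cells: purine synthesis runs in dividing cells generally, tetrahydrobiopterin from the pteridine pathway is a cofactor for making dopamine and serotonin, and Pax7 proteins are present in the dorsal neural tube.

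Levels are given in CPM, the counts of a gene brought to a common library total after TMM scaling, a normalisation that takes most genes as unchanged. Totals ran from 18376627 to 27025868 counts per library. *gas6* encodes a vitamin K-dependent secreted protein that activates receptor tyrosine kinases of the TAM family. It stood at 42.9, 37.7 and 36.8 CPM in the controls and at 5.32, 5.47 and 4.24 CPM in the mutants, lower in every library labelled mutant. Fold changes are mutant over wildtype, and a gene was called at a Benjamini-Hochberg adjusted p under 0.05 from edgeR's quasi-likelihood test across 20463 genes. Of these, 33.3% were called, 16.7% higher and 16.6% lower in the mutants, so a single call is common in these data. The hindbrain markers of the dissected tissue were all detected (11 of 11), and 8 of them were called lower in the mutants. The 11 lens genes were all called higher, with a summed level of 2.32 to 44.6 CPM in the controls and 553 to 1311 CPM in the mutants. The part of these differences in the results below was not tested.

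Of the 10 pigment genes, 6 were called and all 6 were lower in the mutants: *gch2*, *pts*, *xdh*, *pax7b*, *ednrba* and *gart*. None was called higher. *pax7a*, *pnp4a*, *pnp5a* and *ltk* did not pass the test. The 6 lower calls are 60% of the genes, beside 16.6% of all genes tested. *gch2* and *pts* were called and more than 2-fold lower, 2 of 10 genes, beside 3.59% of all genes lower by that criterion and 9.65% in either direction. The ranges of the genotypes did not overlap for 7 of the 10 genes, beside 49.0% of all genes. The median log2 fold change of the 10 genes was -0.50, and that of all genes tested was 0.02. Summed over the 10 genes the level was 589, 498 and 510 CPM in the controls and 311, 307 and 292 CPM in the mutants, a sum made up largely of *gch2*. In tissue measured in bulk, fewer cells of a type and less RNA per cell cannot be told apart.

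**Figure D1:**
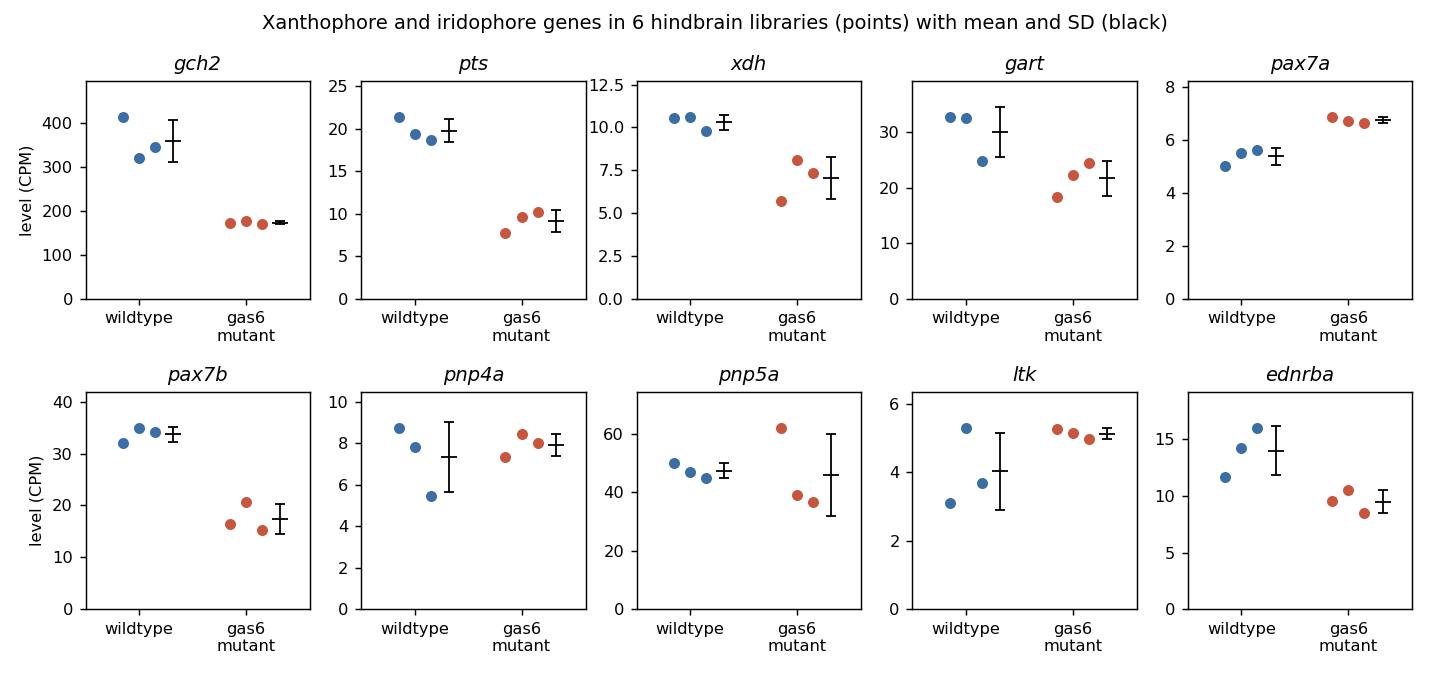
CPM of each of the 10 genes in every library (points, wildtype and *gas6* mutant, black marks give mean and SD, n = 3, each panel on its own axis from 0). *gch2*, *pts* and *pax7b* lie well apart between the genotypes, *pnp4a*, *pnp5a* and *ltk* overlap, and *pax7a* lies slightly higher in the mutants.

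*gch2* encodes the GTP cyclohydrolase that opens pteridine synthesis in pigment cells and is an early mark of xanthophore precursors. Its level was 414, 321 and 347 CPM in the controls and 172, 177 and 170 CPM in the mutants. The mutant libraries lay close together, and every one of them was below the lowest control. On average the level fell from 360 ± 48.1 to 173 ± 3.48 CPM (SD, n = 3 each), to 48.0% of wildtype, with a log2 fold change of -1.06 (SE 0.11, edgeR adjusted p = 3.50e-05). Wildtype library 1 was the highest, and without it the log2 fold change was -0.96 and thus under 2-fold, which left 1 pigment gene, *pts*, called and more than 2-fold lower. *pts* encodes 6-pyruvoyltetrahydropterin synthase, the next enzyme of the pathway. Its level was 21.3, 19.3 and 18.6 CPM in the controls and 7.71, 9.54 and 10.2 CPM in the mutants, and the ranges did not overlap. The log2 fold change of *pts* was -1.11 (SE 0.13, edgeR adjusted p = 0.000104), and it ranged from -1.19 to -1.002 when each library in turn was left out.

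*xdh* encodes xanthine dehydrogenase, which oxidises purines to urate and also acts on pteridines. It stood at 10.5, 10.6 and 9.79 CPM in the controls and at 5.73, 8.11 and 7.35 CPM in the mutants. The ranges again did not overlap, with mutant library 1 the lowest. The level fell to 68.6% of wildtype, a log2 fold change of -0.54 (SE 0.15, edgeR adjusted p = 0.0185). The call was lost without mutant library 1 (log2 fold change -0.41, adjusted p = 0.0742).

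The other genes of pteridine metabolism were read from a list of 15 genes, of which 13 were found and tested, *xdh*, *pts* and *gch2* included. Over the 13, 8 were called lower (61.5%) and 1 higher (7.69%), beside 16.6% lower and 16.7% higher of all genes. Of the 10 that are not among the pigment genes above, 5 were called lower, 1 higher and 4 not at all, with a median log2 fold change of -0.26. Among those called lower were *sprb*, which encodes a sepiapterin reductase (log2 fold change -0.90), and the cofactor-recycling genes *pcbd1* (-0.65), *qdpra* (-0.82) and *qdprb1* (-0.49). The paralogue of *sprb*, *spra*, had means of 10.9 CPM in the controls and 10.6 CPM in the mutants and was not called (-0.03). *gchfr* (0.33) and *mycbp2* (0.03) were not called either. *qdprb1* lost its call without 4 of the 6 libraries in turn. *aox5*, an aldehyde oxidase gene that marks xanthophores and stands in the table as *aox3*, was at 61.0, 52.7 and 56.1 CPM in the controls and at 28.9, 34.2 and 31.9 CPM in the mutants. Its log2 fold change was -0.84 (SE 0.11, edgeR adjusted p = 0.000141), and the ranges did not overlap. Its relative *aox6* (listed as *aox1*) was higher, from 2.89 ± 0.259 to 4.55 ± 0.482 CPM (SD, n = 3 each, edgeR adjusted p = 0.0149), a call lost without wildtype library 3 or mutant library 2.

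*gch1*, the GTP cyclohydrolase gene known for supplying the cofactor to neurons, is the closest comparison for *gch2*. It stood at 4.65, 8.65 and 7.41 CPM in the controls and at 9.08, 7.58 and 5.94 CPM in the mutants, and these ranges overlapped. Its log2 fold change was 0.12 with a 95% interval of -0.37 to 0.60 (edgeR adjusted p = 0.722). The count of *gch2* over that of *gch1* was 89.1, 37.1 and 46.8 in the controls and 18.9, 23.3 and 28.6 in the mutants, without overlap. This ratio is one of 6 computed within libraries, chosen after the values were seen. In an exact two-sided permutation test of 3 against 3 libraries it gave p = 0.1, the smallest the design allows (0.15 after Benjamini-Hochberg adjustment over the 6 ratios). Since *gch2* alone already separated the genotypes and *gch1* did not, the separation of the ratio mainly follows the fall in *gch2*. The permutation test therefore adds no support beyond the *gch2* values.

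**Figure D2:**
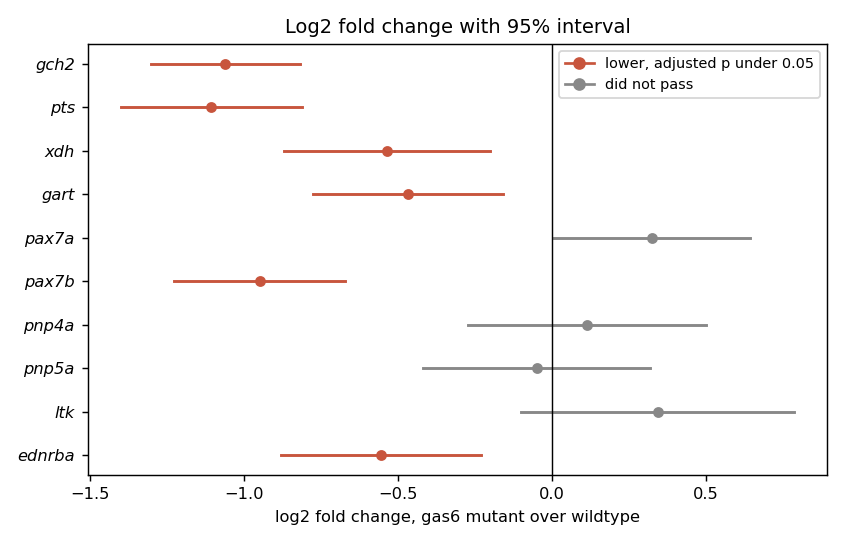
Log2 fold change (mutant over wildtype) of each of the 10 genes (points) with its 95% interval (lines), red where edgeR's adjusted p is under 0.05 and grey where not. The 6 called genes all lie below 0, from -0.47 for *gart* to -1.11 for *pts*, and the intervals of *pnp4a*, *pnp5a* and *ltk* include 0.

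*pax7a* and *pax7b* encode paired-box transcription factors that act in the xanthophore lineage, and only *pax7b* was called. It was at 32.1, 34.9 and 34.2 CPM in the controls and at 16.4, 20.7 and 15.2 CPM in the mutants. The highest mutant value was well below the lowest control, and the level fell to 51.7% of wildtype. The log2 fold change of *pax7b* was -0.95 (SE 0.13, edgeR adjusted p = 0.000209). Without mutant library 2 it was -1.09, which raised the number of pigment genes called and more than 2-fold lower from 2 to 3. *pax7a* was at 5.01, 5.50 and 5.59 CPM in the controls and at 6.84, 6.72 and 6.62 CPM in the mutants. These ranges did not overlap either, with every mutant library above every control, but the log2 fold change of 0.32 (SE 0.15, 95% interval 0.0072 to 0.64) did not pass the test (edgeR adjusted p = 0.106). Pax7 genes are also genes of the dorsal midbrain. Of 11 midbrain genes on a list, 5 were called higher (45.5%) and 1 lower (9.09%), beside 16.7% and 16.6% of all genes. Their summed levels were 286 to 304 CPM in the controls and 366 to 417 CPM in the mutants. The sum joins unlike changes: *pax2a* had means of 121 and 143 CPM and was not called, whereas *otx2b* rose from 13.4 to 62.2 CPM. Both were named after their values were seen. The part of the midbrain genes in the *pax7a* and *pax7b* values was not tested.

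Within libraries, the count of *pax7a* over that of *pax7b* was 0.156, 0.158 and 0.164 in the controls and 0.417, 0.325 and 0.436 in the mutants. The controls lay within a narrow band and all mutants far above it, a log2 difference of 1.29 (exact two-sided permutation p = 0.1, the smallest possible, 0.15 adjusted over the 6 ratios). Every mutant library was above every control in *pax7a* and below every control in *pax7b*, so this separation was fixed by those values. The test of the ratio therefore adds no support to them. A ratio within a library does not depend on how the library was scaled. The related *pax3a*, which acts upstream in the neural crest and is also a gene of the dorsal neural tube, was at 44.8, 44.5 and 46.0 CPM in the controls and at 19.3, 18.7 and 19.2 CPM in the mutants. Its log2 fold change was -1.24 (SE 0.098, edgeR adjusted p = 3.80e-06), with little spread inside either genotype. Its paralogue *pax3b* had a log2 fold change of 0.44 and did not pass the test (edgeR adjusted p = 0.114). *pax7b* over *pax3a* was 0.716, 0.785 and 0.743 in the controls and 0.853, 1.11 and 0.793 in the mutants. The exact two-sided permutation test gave p = 0.1, the smallest possible (0.15 adjusted over the 6 ratios). The highest control lay just below the lowest mutant, and the pair was chosen after the values were seen. The test of this ratio thus adds no support for a difference between *pax7b* and *pax3a*.

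**Figure D3:**
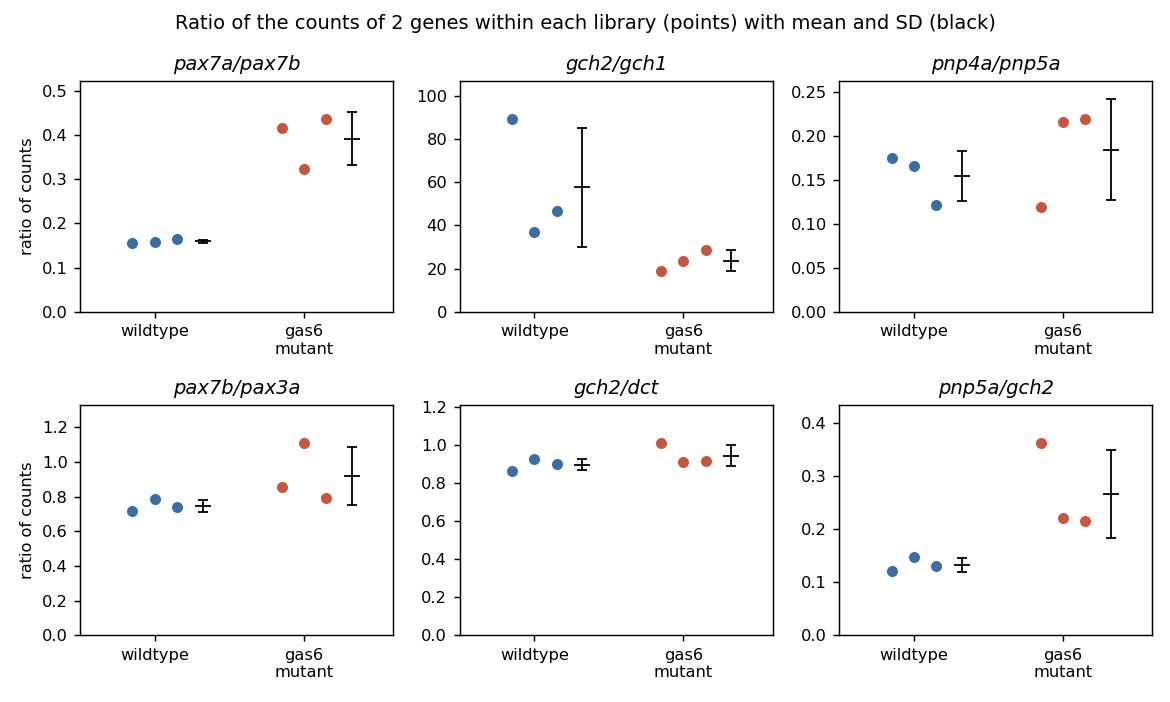
Ratios of counts between gene pairs in each of the 6 libraries (points, with mean and SD in black, n = 3 per genotype), each panel on its own axis from 0 and with counts not corrected for gene length. The ratios *pax7a/pax7b*, *gch2/gch1*, *pax7b/pax3a* and *pnp5a/gch2* separate the genotypes, whereas *pnp4a/pnp5a* and *gch2/dct* overlap.

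A list of 19 genes of the xanthophore lineage, overlapping in part with the pteridine list, held 18 tested genes. Of these, 10 were called lower (55.6%, beside 16.6% of all genes), 0 higher and 8 not at all (1 was called higher without wildtype library 2 and 1 without wildtype library 3). The median log2 fold change of the list was -0.52, beside 0.02 for all genes tested. Of the 13 that are not among the pigment genes above, 6 were called lower and 7 not. *slc2a11b* and *slc2a15b*, sugar-transporter family genes known from medaka pigment cells, fell with log2 fold changes of -0.84 and -0.75, and *slc2a15a* with -0.60. *csf1b*, which encodes a ligand of the Csf1 receptor, had a log2 fold change of -0.42 (edgeR adjusted p = 0.0416), a call lost in each of the 6 fits that left out 1 library and under upper quartile scaling, DESeq2 and the replicate block (adjusted p = 0.0588, 0.0706 and 0.0769), under which the lower calls of the list numbered 9. The receptor gene *csf1ra* itself, required by xanthophores and also expressed in macrophages, stood at 8.56, 13.2 and 13.4 CPM in the controls and at 11.4, 13.2 and 13.5 CPM in the mutants. Those ranges overlapped and *csf1ra* did not pass the test (log2 fold change 0.11, 95% interval -0.25 to 0.48, edgeR adjusted p = 0.631). Beside it, 2 of 7 genes on a list for microglia and macrophages were called higher (28.6%, beside 16.7% of all genes). The part of those cells in the *csf1ra* value was not tested.

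*gart* encodes an enzyme that carries out several steps of purine synthesis. Its level was 32.7, 32.6 and 24.8 CPM in the controls and 18.3, 22.3 and 24.4 CPM in the mutants. The ranges came close, with the lowest control just above the highest mutant. The level fell to 72.2% of wildtype, a log2 fold change of -0.47 (SE 0.14, edgeR adjusted p = 0.0246). Of the called pigment genes this was the least stable call: it was lost without wildtype library 1 (adjusted p = 0.0599), wildtype library 2 (0.0685), mutant library 1 (0.0993) or mutant library 2 (0.0663).

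Of the 15 genes of purine synthesis listed, *gart* included, 10 were called lower (66.7%, beside 16.6% of all genes), 0 higher and 5 not at all. The median log2 fold change of the list was -0.40. The early steps were represented by *prps1a* (-0.40), *prps1b* (-0.39) and *ppat* (-0.42, all log2 fold changes), which make and commit the ribose phosphate precursor. *pfas* (-0.46), *paics* (-0.48) and *atic* (-0.66) of the later steps were lower too. On the branches to AMP and GMP, *adssl* (-0.47), *impdh1b* (-0.40) and *gmps* (-0.57) were called lower. *adss*, *adssl1*, *impdh1a*, *impdh2* and *adsl* did not pass the test, with log2 fold changes from -0.29 for *adsl* to 0.39 for *adss*. Leaving out 1 library at a time gave 6 to 11 lower calls in this list, with 6 without mutant library 1 and 6 without mutant library 2. Those fits also had the smallest shares of all genes called, 24.9% and 22.5%, beside 33.3% in the main fit. Besides *gart*, *prps1a*, *prps1b* and *ppat* lost their calls without mutant library 1, *prps1a*, *prps1b* and *paics* without mutant library 2, and *prps1a* without wildtype library 2. Genes of DNA replication, a list for dividing cells, were called lower in 15 of 15 cases (100%, beside 16.6% of all genes). Their median log2 fold change was -0.81. The summed level of that list was 4686 to 5488 CPM in the controls and 2874 to 2984 CPM in the mutants, and its part in the purine synthesis values was not tested.

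**Figure D4:**
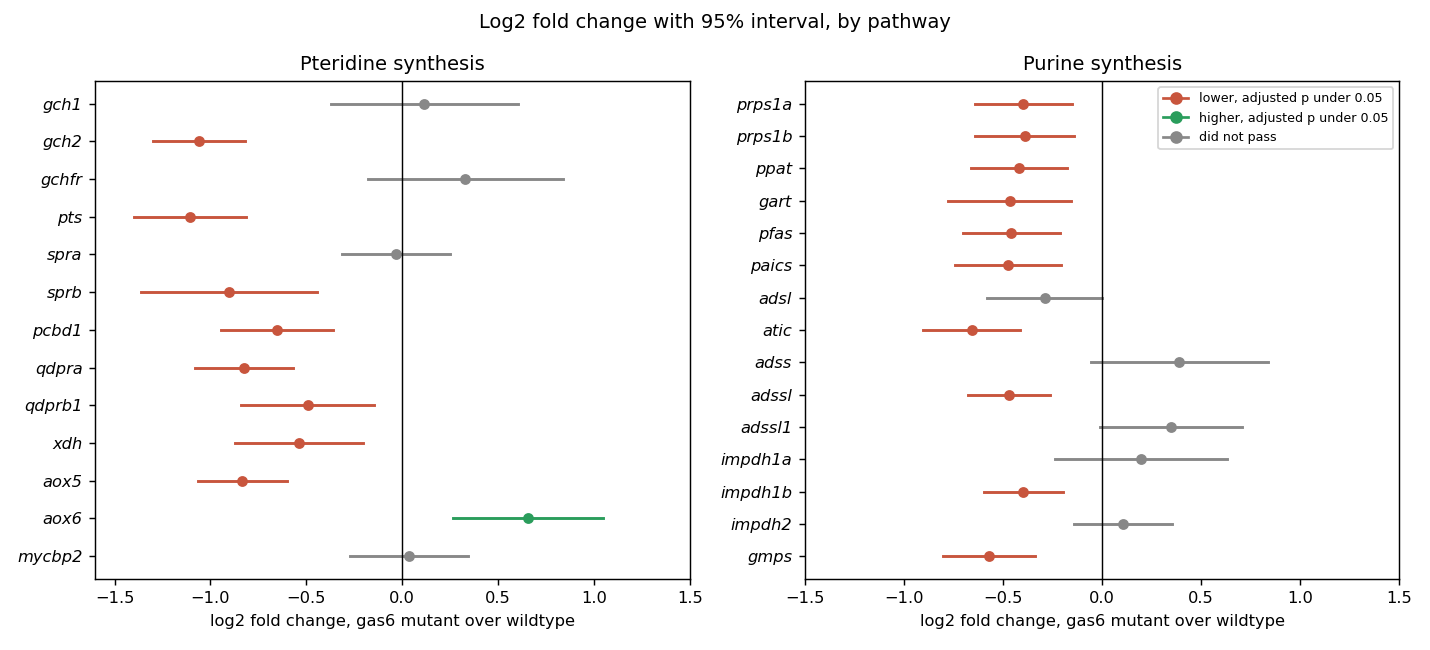
Log2 fold changes (mutant over wildtype, points) with 95% intervals (lines) of the tested genes of pteridine synthesis, 13 genes, and purine synthesis, 15 genes. Called genes are red where lower and green where higher, and those that did not pass are grey. All called genes lie below 0 except *aox6* at 0.66.

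*pnp4a* encodes a purine nucleoside phosphorylase that frees guanine and hypoxanthine from their nucleosides, and it is a standard mark of iridophores. It stood at 8.75, 7.81 and 5.45 CPM in the controls and at 7.35, 8.44 and 8.0 CPM in the mutants. The mutant values lay inside the control range. Its log2 fold change was 0.11 (SE 0.18, 95% interval -0.27 to 0.50, edgeR adjusted p = 0.654), so the interval excludes a 2-fold change in either direction. *pnp5a*, a paralogue, stood at 50.1, 47.1 and 45.0 CPM in the controls and at 62.1, 39.1 and 36.6 CPM in the mutants. Mutant library 1 was the highest of all 6 libraries and the other mutants the lowest. The log2 fold change of *pnp5a* was -0.05 (SE 0.17, 95% interval -0.42 to 0.32, edgeR adjusted p = 0.848), and without mutant library 1 it was -0.32 (adjusted p = 0.0662).

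The count of *pnp5a* over that of *gch2* was 0.121, 0.147 and 0.130 in the controls and 0.361, 0.221 and 0.215 in the mutants. Each mutant library thus held more *pnp5a* for its *gch2* than any control (exact two-sided permutation p = 0.1, the smallest possible). Between the genotypes *gch2* did not overlap and *pnp5a* did, so this separation mainly follows the fall in *gch2*. The pair was also chosen after the values were seen, and the permutation test of this ratio adds no support for a difference between the cell types. *pnp4a* over *pnp5a* overlapped between the genotypes (p = 0.6 in the same test). Of the other phosphorylase genes, *pnp6* rose from 0.967 ± 0.176 to 2.31 ± 0.357 CPM (SD, n = 3 each), a log2 fold change of 1.26 (SE 0.25, edgeR adjusted p = 0.00279). *pnp5b* did not pass the test (log2 fold change -0.28, edgeR adjusted p = 0.232), and *pnp4b*, with 2 to 9 counts per library, was below the filter.

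In the list of purine salvage and breakdown, 14 genes were tested, of which 3 were called higher, 3 lower and 8 not. Each direction made up 21.4% of the list, beside 16.7% higher and 16.6% lower of all genes. Besides *pnp6*, the higher ones were *ada*, adenosine deaminase (0.84), and *uox*, urate oxidase (2.61). *uox* was at 1.18, 2.31 and 0.932 CPM in the controls and at 12.8, 9.12 and 5.68 CPM in the mutants, without overlap. Urate is broken down in liver, and of 6 listed liver genes tested, 2 were called higher (33.3%, beside 16.7% of all genes) and 4 not. Summed over 7 liver genes the level was 60.1 to 154 CPM in the controls and 275 to 541 CPM in the mutants. Most of this sum came from the 2 called genes, *tfa* and *apoa1b*, named after their values were seen. Their means were 15.5 and 59.8 CPM in the controls and 186 and 173 CPM in the mutants. The ranges of *tfa* did not overlap, but those of *apoa1b* did, with wildtype library 2 at 96.6 CPM and mutant library 2 at 81.4 CPM. The part of the liver genes in the *uox* value was not tested. The lower ones were *xdh*, described above, *adka*, adenosine kinase (-0.38, lost without mutant library 2), and *urah*, which acts on the product of urate oxidase (-0.90).

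*ltk* encodes the receptor tyrosine kinase that establishes iridophores from the neural crest. Its level was 3.10, 5.29 and 3.68 CPM in the controls and 5.27, 5.15 and 4.96 CPM in the mutants. Wildtype library 2 was the highest of all, and the other controls were below every mutant. The log2 fold change of *ltk* was 0.34 (SE 0.20, 95% interval -0.10 to 0.79, edgeR adjusted p = 0.214). Without wildtype library 2 it was 0.58 and passed the test (adjusted p = 0.0414), so that 1 library decides the call. The Alkal proteins are the ligands of this receptor in zebrafish. *alkal2b* was at 1.40 ± 0.191 CPM in the controls and 1.59 ± 0.431 CPM in the mutants (SD, n = 3 each, edgeR adjusted p = 0.589), and *alkal1* and *alkal2a*, with 1 to 3 and 2 to 6 counts per library, were below the filter.

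*ednrba* encodes the endothelin receptor that pigment cells use, and the zebrafish rose mutant, which lacks it, has fewer iridophores and melanophores as an adult. It stood at 11.7, 14.2 and 15.9 CPM in the controls and at 9.53, 10.5 and 8.43 CPM in the mutants, without overlap. The level fell to 68.0% of wildtype, a log2 fold change of -0.56 (SE 0.15, edgeR adjusted p = 0.0134). The call was lost without wildtype library 3 (adjusted p = 0.0586) or mutant library 3 (0.0552). Of the receptors of the other subtype, *ednrab* fell from 8.93, 6.89 and 6.15 CPM to 1.32, 1.54 and 2.39 CPM, a log2 fold change of -2.04 (SE 0.24, edgeR adjusted p = 7.63e-05). Its paralogue *ednraa* was higher, from 31.5 ± 2.32 to 44.6 ± 9.08 CPM (SD, n = 3 each), a log2 fold change of 0.50 (edgeR adjusted p = 0.0151) whose call was lost without wildtype library 2 or mutant library 3. These 3 receptors were the called genes among 7 tested of the endothelin system. Lower calls made up 28.6% of that list and the higher call 14.3%, beside 16.6% and 16.7% of all genes. *edn3b* (listed as *EDN3*), with 5 to 9 counts per library, was below the filter, and *ednrbb* and *edn3a* were not matched and are not analysed here.

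Over the whole iridophore list, 14 genes were tested, of which 3 were called lower, 1 higher and 10 not, with a median log2 fold change of 0.07. The lower calls made up 21.4% of the list and the higher call 7.14%, beside 16.6% and 16.7% of all genes. The higher calls numbered 3 without wildtype library 2 and 2 with the replicate block, and the lower calls numbered 1 without mutant library 2. The lower ones were *ednrba*, *gart* and *mpv17*, a mitochondrial membrane protein gene whose loss removes iridophores in zebrafish (log2 fold change -0.58, a call lost without mutant library 2). The higher one was *defbl1*, a beta-defensin-like gene of iridophores, from 3.10 ± 0.397 to 6.02 ± 1.09 CPM (SD, n = 3 each), a log2 fold change of 0.95 (edgeR adjusted p = 0.00299). *tfec*, a transcription factor gene of the early iridophore lineage, was at 1.73, 2.31 and 1.21 CPM in the controls and at 1.57, 2.04 and 2.39 CPM in the mutants and did not pass the test (edgeR adjusted p = 0.608). Summed over the list the level was 365 to 376 CPM in the controls and 351 to 372 CPM in the mutants, which overlap. A large part of that sum was *tjp1a*, a tight junction gene also expressed outside pigment cells and named after its values were seen. It stood at 164 to 198 CPM in the controls and 177 to 195 CPM in the mutants. Without *tjp1a* the lowest control sum was just above the highest mutant sum, but with *foxd3* left out as well the sums overlapped again. Whether these sums overlap thus turns on single genes. For the xanthophore list the sums were 826 to 931 CPM and 587 to 612 CPM, which do not overlap. Much of that fall was *gch2*, with means of 360 and 173 CPM, although without it the sums still did not overlap. *sox5*, named after its values were seen, went the other way, with means of 179 and 213 CPM, and was not called. No test of the difference between the iridophore and xanthophore lists was made, and both share genes with the pathway lists.

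**Figure D5:**
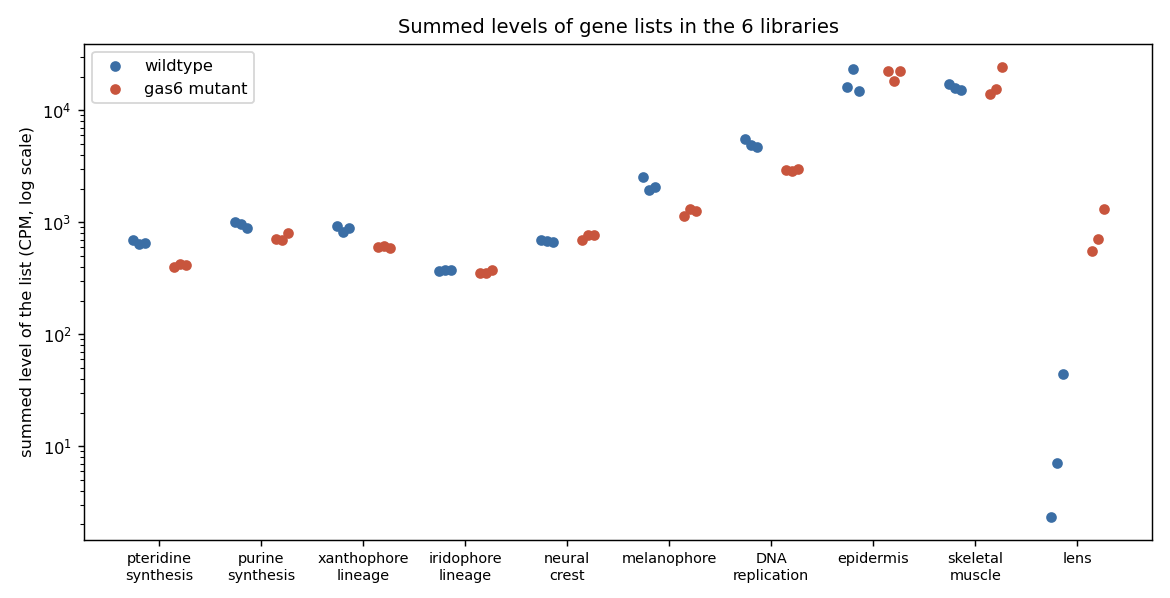
Summed CPM of 10 gene lists in each of the 6 libraries (points, coloured by genotype) on a log axis. The controls lie above the mutants for pteridine, purine synthesis, xanthophore, melanophore and DNA replication genes and below them for lens genes. The genotypes overlap for the iridophore, neural crest, epidermis and skeletal muscle lists, and for the iridophore list this turns on single genes.

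The other pigment cell and the shared origin were read from the same libraries. Of 14 melanophore genes, 12 were called lower (85.7%), 1 higher (7.14%) and 1 not, beside 16.6% lower and 16.7% higher of all genes. The median log2 fold change of the list was -0.75. The higher call was lost without wildtype library 1, wildtype library 3, mutant library 2 or mutant library 3, each in turn. *dct*, dopachrome tautomerase of melanin synthesis, stood at 478, 347 and 386 CPM in the controls and at 170, 195 and 186 CPM in the mutants, a log2 fold change of -1.14 (SE 0.13, edgeR adjusted p = 5.13e-05). *mitfa*, the transcription factor gene of the melanophore lineage, fell with a log2 fold change of -0.79 (edgeR adjusted p = 0.0025). The count of *gch2* over that of *dct* was 0.866, 0.926 and 0.898 in the controls and 1.01, 0.909 and 0.917 in the mutants. These ranges overlapped, with a log2 difference of 0.07 (exact two-sided permutation p = 0.3, 0.36 adjusted over the 6 ratios).

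Of 12 neural crest genes tested, 4 were called higher, 0 lower and 8 not, with a median log2 fold change of 0.21. The calls made up 33.3% of the list, beside 33.3% of all genes called in either direction and 16.7% called higher. Without mutant library 3, 2 genes were called lower, and without wildtype library 3, 2 rather than 4 were called higher. The higher ones were *tfap2b* (0.35), *tfap2c* (0.54), *tfap2e* (0.96) and *twist1b* (0.62). *tfap2b* lost its call under RLE scaling, without the filter and in 4 of the fits that left out 1 library, and *tfap2c* without wildtype library 3 or mutant library 3. *sox10*, which marks pigment precursors and glia, was at 76.7, 67.5 and 70.9 CPM in the controls and at 53.2, 64.9 and 64.0 CPM in the mutants. These ranges did not overlap, but *sox10* did not pass the test (log2 fold change -0.24, edgeR adjusted p = 0.108), nor did *foxd3* (-0.19, adjusted p = 0.425). Of 7 genes of the retinal pigment epithelium tested, another source of melanin genes, 3 were called higher (42.9%, beside 16.7% of all genes) and 0 lower. The summed levels over the list were 18.1 to 19.7 CPM in the controls and 23.3 to 28.8 CPM in the mutants.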

How the data were processed

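The authors extracted RNA from pooled hindbrains and made stranded polyA libraries, 3 per genotype. The submitters' notes name RSEM 1.2.28, FastQC, DESeq2 and the builds GRCz10 and danRer7 without their roles, so no coordinates are given. The deposited table holds estimated counts per gene and library, not normalized, and 4 of the 10 genes had whole counts throughout. Its deposited log2 fold changes, fold ratios and adjusted p-values, made by the authors, were not used. Names were matched directly, by letter case or through RefSeq's gene table (GRCz12tu).

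Estimated counts were rounded and filtered with filterByExpr (minimum count 10, minimum total 15), leaving 20463 of 23025 genes. TMM scaling and the quasi-likelihood test (glmQLFit, glmQLFTest) came from edgeR 4.0.16 (R 4.3.3, limma 3.58.1), with genotype as the only factor and 4 residual degrees of freedom. P-values were adjusted over all genes. DESeq2 1.42.0, other scalings, no filter, a replicate block, a stricter threshold and leaving out each library were alternatives. Ratios of counts were compared by exact permutation.

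The labels call the libraries replicates without naming separate crosses, so p-values measure only the spread between these pools. Within genotypes, libraries differed by far more than counting noise, at 6.67 to 24.5 units of chi-square per degree of freedom. All 10 pigment genes were named, with their paralogues and partners, the called genes of the pathway and lineage lists, and the markers *mitfa*, *dct*, *sox10*, *foxd3*, *csf1ra* and *aox5*. Members and lists were chosen with earlier results of these data known.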

Additional observations from a re-analysis of the deposited data

How the results depend on the processing

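Of the 10 pigment genes, 6 were called under TMM and again under RLE size factors, upper quartile scaling, DESeq2, no filter on low counts and the replicate block (6 with the replicate block), and 2 were more than 2-fold lower in each of these. At an adjusted p under 0.01 the called genes numbered 3, and the share of all genes at that threshold is not given here. Of all genes, 33.3% were called at an adjusted p under 0.05 in the main fit and 29.2% to 33.3% under the 5 other settings. Leaving out 1 library gave 4 to 6 called pigment genes and 1 to 3 more than 2-fold lower, with 22.5% to 33.2% of all genes called. The count of 6 came without wildtype library 2, where *gart* lost its call and *ltk* was called higher. No fit that left out 1 library kept all 6 lower calls. Of the fold changes of the 10 genes under the 5 other settings, all 50 kept direction and call. Of 60 with 1 library left out, 49 did, 7 lost the call, 1 gained it (ltk without wildtype replicate 2) and 3 turned direction. The last were uncalled throughout: *pnp4a* ranged from -0.070 to 0.25, negative without wildtype replicate 3, and *pnp5a* from -0.32 to 0.090, with 0.055 without mutant replicate 2 and 0.090 without mutant replicate 3. The causes were not tested. The other log2 ranges were -1.15 to -0.96 for *gch2*, -1.19 to -1.002 for *pts*, -0.65 to -0.41 for *xdh*, -0.60 to -0.36 for *gart*, -1.09 to -0.86 for *pax7b*, 0.27 to 0.34 for *pax7a*, 0.18 to 0.58 for *ltk* and -0.67 to -0.46 for *ednrba*. Deviations of libraries with the same replicate number had correlations of 0.00, -0.11 and 0.01 across genes. They gave no sign that the numbers pair the libraries, but correlations over so few libraries cannot exclude it. The list counts and the pathway genes' fold changes under these settings were alternatives chosen after seeing the data. Among the lists, the lower calls with 1 library left out ran from 6 to 8 for pteridine, 8 to 10 for xanthophore and 1 to 3 for iridophore genes. Genes with few counts, such as *alkal1* and *edn3b*, were removed by the filter and so were not tested in the main fit.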
